A study of Mus musculus with 4 samples.

Results

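The translation initiation factors (eIFs) and elongation factors (eEFs) were compared between a captured RNA fraction and a tissue RNA fraction in the mouse. The captured fraction was pulled down with ribosomes that only dopamine neurons were meant to tag. The tissue fraction came from the whole midbrain dissection, which the paper uses as input, so dopamine neurons contribute to it as well. Members were all genes whose symbol begins with Eif and a digit between 1 and 6, or with Eef and 1 or 2, and which have at least 1 probe set that the array annotation assigns to a single gene. The rule found 58 of 18193 genes, measured by 155 probe sets, and each gene is represented by its brightest probe set, judged by the mean log2 value of the 4 arrays. The rule also takes in enzymes that act on the factors and carry their names, such as kinases of eIF2 and methyltransferases of eEF1A. A further 8 probe sets carry a factor symbol together with another symbol and were not used. Without a probe set of their own, Eif1, Eif2s1, Eif3g, Eif3j1, Eif3j2, Eif4g1, Eef1g and Eif4ebp3 were not analysed here.

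All mice came from the Slc6a3 JD1640 TRAP line, in which a bacterial artificial chromosome with the dopamine transporter gene Slc6a3 drives the ribosomal protein RPL10A fused to enhanced green fluorescent protein. The line was founded on FVB oocytes, bred on to C57BL6/j mice and kept as trans-heterozygotes, so both fractions carry the transgene. TRAP (translating ribosome affinity purification) captures the tagged ribosomes with antibodies to the fluorescent protein, after cycloheximide has stalled translation. The TRAP fraction (replicates 2 and 4) was compared with the fraction that the labels call unbound (total) RNA and the methods call input (replicates 1 and 2), here called input. Each of the 4 arrays holds RNA from a pool of 5 mice of both sexes, aged 6 to 12 weeks. Input was collected in parallel from each replicate, so the arrays numbered 2 in both fractions may come from the same mice. The p-values below therefore measure the spread between 2 arrays per fraction, and the small number of arrays limits their precision.

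Initiation factors load the initiator tRNA and the small ribosomal subunit onto the capped end of an mRNA, scan to the start codon and release the factors for subunit joining. Elongation factors then bring aminoacyl-tRNAs to the ribosome and move it along the message. The guanine nucleotide exchange factor eIF2B, the cap-binding complex eIF4F and the kinases of eIF2 and eEF2 are the steps at which neurons are best known to adjust the rate of protein synthesis.

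Levels are in arbitrary units, 2 raised to the deposited log2 value, and a gene was counted as above background where both arrays of at least 1 fraction reached 50 units. The check of the captured cells gave summed levels of 10 dopamine neuron markers of 133713 and 169928 units on the TRAP arrays, against 13316 and 12080 units on the input arrays, and all 10 were higher in TRAP. Of 7 measured oligodendrocyte markers the sums were 70627 and 32742 units in TRAP and 77276 and 89179 units in input, and of 8 astrocyte markers 12990 and 7443 units in TRAP and 28545 and 34925 units in input. The 7 microglial markers summed to 999 and 464 units in TRAP and 1543 and 3187 units in input. Single glial markers in TRAP reached 41048 and 18665 units for the myelin gene Mbp. The astrocyte gene Gja1 had 6105 and 3467 units there and the microglial gene Csf1r 522 and 305 units. Other members of the same lists, Sox9 of astrocytes (22.9 and 16.0 units) and Cx3cr1 of microglia (33.1 and 24.4 units), were under background in TRAP. The sources used here do not say whether GCRMA was run on all arrays together or on each fraction, so a difference in normalization and a difference in RNA cannot be told apart. The array median was 7.28 and 7.13 units in TRAP and 10.2 and 10.1 units in input, and the log2 difference of the 3′ over the 5′ control probe set of Gapdh was 4.96 and 3.52 in TRAP and 6.81 and 6.39 in input. The part of these differences in the results on the factor genes was not tested. In such bulk RNA a smaller number of cells of a type and less RNA per cell cannot be told apart.

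Of the 58 factor genes, 54 were above background, and 15 of these (27.8%) were higher and 1 (1.85%) was lower in TRAP than in input at a limma adjusted p under 0.05. Over all 10014 genes above background the same fit called 18.7% higher and 6.87% lower. The median log2 fold change of the factor genes was 0.67, against 0.44 over all genes, with a range of −0.76 to 2.72. Both TRAP arrays lay above both input arrays for 35 factor genes (64.8%), against 52.3% of all genes, and below both for 3, against 23.6% of all genes. For the other 16 the fractions overlapped. By the fitted value, 9 of the 15 genes were at least 2-fold higher, and 4 of these 9 encode subunits of eIF2B.

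The counts rested on few arrays. Leaving out TRAP replicate 2 gave 5 higher (9.26%, against 7.78% of all genes), and leaving out TRAP replicate 4 gave 7 (13.0%, against 7.38%). Leaving out input replicate 1 or input replicate 2 gave 8 each time (14.8%, against 15.3% and 13.9% of all genes), and 0 were lower in these 4 fits (0 to 2 at an unadjusted limma p under 0.05). In these fits the lone array was assumed to vary like the other fraction, so the spread came from 1 pair of arrays alone. A gene with a close pair in the fraction left whole could pass for that reason. The lack of lower calls in these fits is therefore no result about the factor genes. After quantile normalization of the arrays 7 were higher (13.0%, against 12.2% of all genes) and 2 lower (3.70%, against 10.2%), and after centring on bright probe sets 13 were higher (24.1%, against 20.2%) and 3 lower (5.56%, against 19.8%). With only probe sets above background in the fit, 12 were higher (22.2%, against 22.7% of all genes). In that fit 0 were lower (1 at an unadjusted limma p under 0.05), against 9.17% of all genes. The larger share of factor genes called higher thus did not hold without input replicate 1 or in the fit above background only, and it was under 2 percentage points above that of all genes without TRAP replicate 2, without input replicate 2 and after quantile normalization. Quantile normalization and centring moved the median of all genes by −0.39 and −0.41, and the factor genes' median stood 0.23 above that of all genes as deposited, 0.12 after quantile normalization and 0.23 after centring. When values under 50 units were raised to 50 before the fit, 0 factor genes passed the threshold (17 were higher and 1 lower at an unadjusted limma p under 0.05), against 4.44% of all genes called higher and 1.98% called lower.

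**Figure D1:**
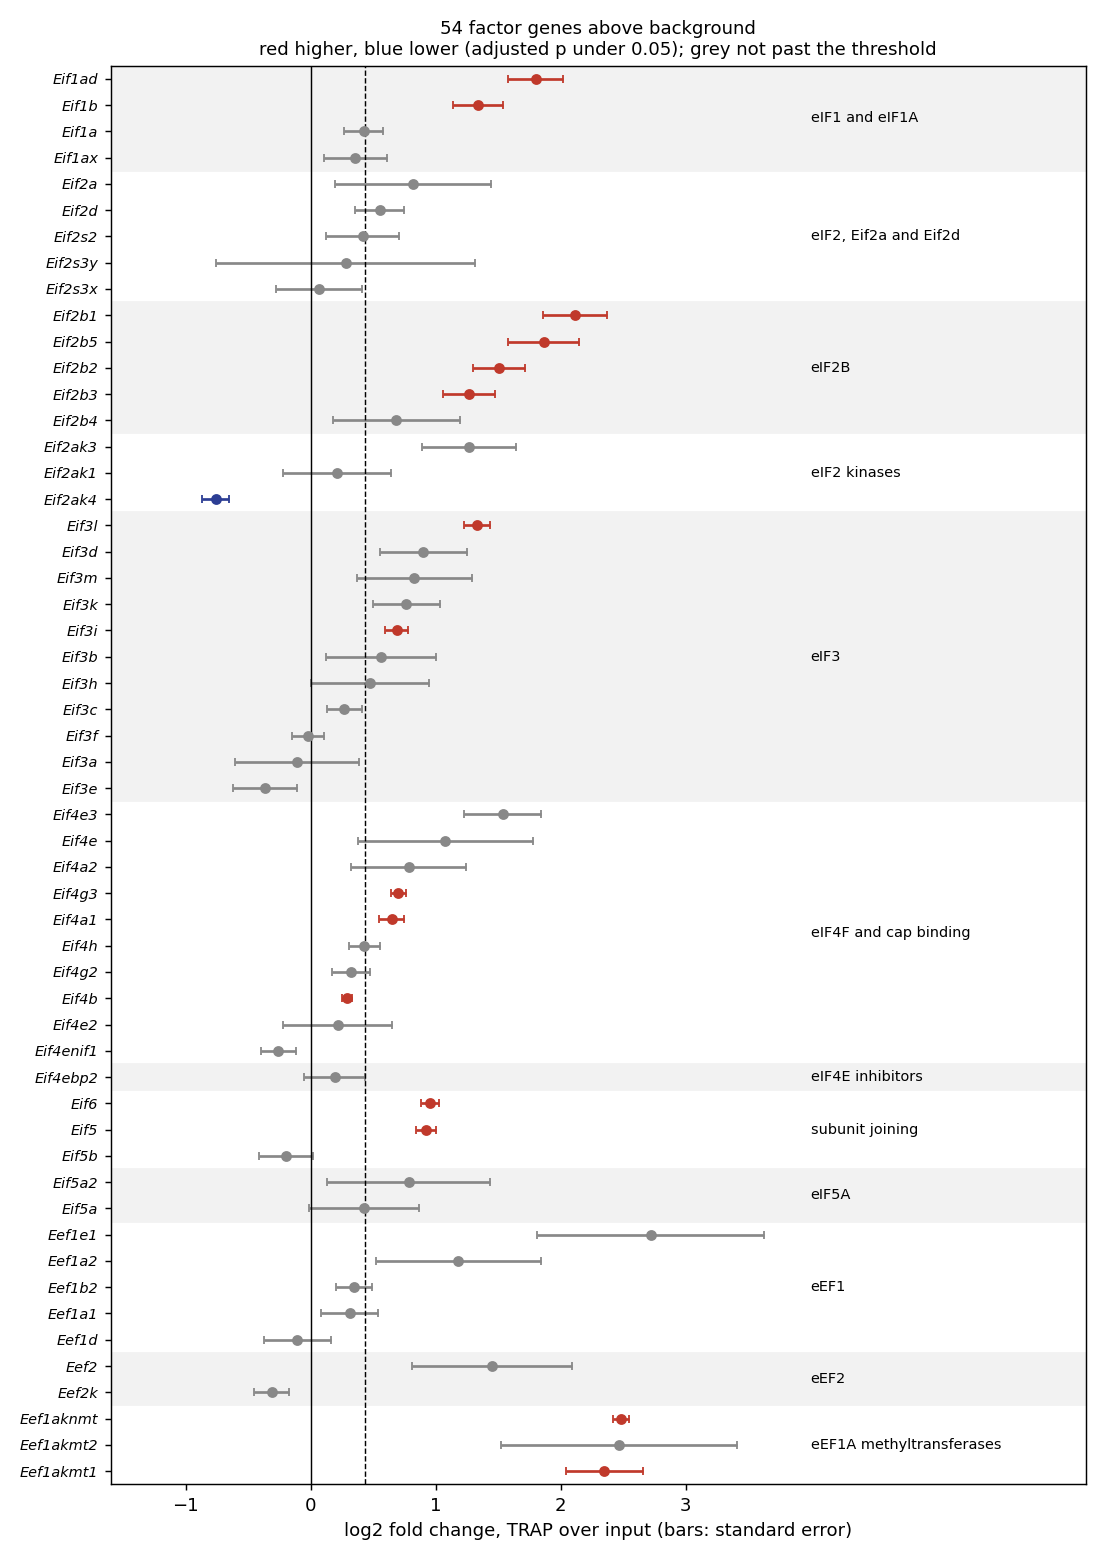
Log2 fold change between TRAP and input (x axis, positive where TRAP was higher) with its standard error (bars, n = 2 arrays per fraction) for the 54 factor genes above background, grouped by role; the dashed line is the median of all genes above background, 0.44. The 4 red points of eIF2B lie between 1.27 and 2.12, and Eif2ak4, at −0.76, is the single blue point.

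The exchange factor eIF2B, which reloads eIF2 with GTP after each round of initiation, had the largest share of called genes among the complexes with several measured subunits. All 5 of its subunit genes had both TRAP arrays above both input arrays, as did 52.3% of all genes. Of the 5, 4 rose past the threshold (80%, against 18.7% of all genes), and the median log2 fold change was 1.51, against 0.44. Eif2b1, the alpha subunit, had 175 and 256 units in TRAP and 49.0 and 48.7 units in input. Both input arrays were just under background, so the fold is a bound against 50 units, at least 4.23-fold higher (limma adjusted p = 0.0241). Eif2b5, the catalytic epsilon subunit, had 423 and 629 units in TRAP and 132 and 152 units in input, with no overlap. Its log2 fold change was 1.86 ± 0.28 (SE, limma adjusted p = 0.0364).

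Eif2b2, the beta subunit, had 2407 and 1885 units in TRAP and 825 and 680 units in input (log2 fold change 1.51 ± 0.21, limma adjusted p = 0.0312). Eif2b3, the gamma subunit that pairs with epsilon, had 111 and 120 units in TRAP and 55.6 and 41.3 units in input, close to background (log2 fold change 1.27 ± 0.20, limma adjusted p = 0.0407). For both genes the fractions were separate, and the call of Eif2b2 was lost after quantile normalization. Eif2b4, the delta subunit, had 1273 and 1330 units in TRAP and 555 and 1176 units in input, and the spread of the input pair left its log2 fold change of 0.69 ± 0.50 short of the threshold (limma adjusted p = 0.342). The calls of Eif2b2 and Eif2b5 were lost when any 1 of the 4 arrays was left out, and those of Eif2b1 and Eif2b3 in some of these fits. Such a fit takes its spread from the fraction left whole, so it cannot decide which of the calls hold. The medians of the 5 genes were 1.33 and 1.58 without each TRAP array, 1.65 and 1.37 without each input array, 1.23 after quantile normalization and 1.10 after centring.

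RefSeq start sites of GRCm38.p6 place short sequences of note at 3 of these genes, shown here because eIF2B was called most often. The first pair has in capitals a run of C and T that begins with C near the transcription start. In Eif2b5 more C and T letters stand directly before that run and are not marked. The last pair has in capitals the letters CCGGAAG, the core that ETS-family factors recognise. Each line runs in the direction of the gene, chr12:85219471-85219500 (+), chr16:20498807-20498836 (+), chr12:85219485-85219514 (+) and chr5:31193121-31193150 (−).
Eif2b2 start: ccgagcggaagttgaCCTCTCTCggcccgg
Eif2b5 start: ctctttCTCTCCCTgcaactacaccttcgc
Eif2b2 ETS letters: acctctctcggcCCGGAAGtgaaacagtgc
Eif2b4 ETS letters: acccagtgcacgCCGGAAGttgtagtccgc
Eif2b2 holds both features close to its start, and that of Eif2b4, the subunit that was not called, holds the ETS letters at its start. Eif2b1 had neither.

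Substrate and regulators of eIF2B were measured as well. Of the 5 genes for eIF2 itself and for tRNA delivery, 0 passed the limma threshold by their chosen probe sets (also 0 at an unadjusted p under 0.05). Their median log2 fold change was 0.42, against 0.44 over all genes, of which 18.7% were called higher and 6.87% lower. With 5 genes, 0 calls do not set the group apart. Eif2s2, the beta subunit of eIF2, had 3124 and 3249 units in TRAP and 1921 and 2967 units in input, and its log2 fold change was 0.42 ± 0.29. Its further probe sets above background all had larger values, from 0.65 to 2.21. With the mean of all its probe sets Eif2s2 was called higher (0.83, limma adjusted p = 0.0328), so its result depended on the probe set. Eif2a, which can bind initiator tRNA on its own, had 757 and 616 units in TRAP and 608 and 246 units in input. Its log2 fold change of 0.82 ± 0.62 was within the spread of the input pair.

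The gamma subunit of eIF2 has an X-linked and a Y-linked gene. Eif2s3x had 1899 and 2395 units in TRAP and 2556 and 1623 units in input, so the TRAP arrays lay between the input arrays. Eif2s3y had 458 and 138 units in TRAP and 337 and 127 units in input, and the array of TRAP replicate 2 and that of input replicate 1 were both more than 2-fold above their partners. The sex ratio of the pools is not given beyond both sexes, and its part in these differences was not tested. The other sex-linked genes measured were under background on both TRAP arrays. Kdm5d, a Y-linked histone demethylase, had 13.5 and 8.3 units in TRAP and 110 and 112 units in input, Xist, the X-inactivation RNA, reached 121 units on input replicate 1 and at most 7.1 units on the other 3 arrays, and Uty was at most 9.5 units on all 4.

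The eIF2 kinases phosphorylate eIF2 and thereby turn it into an inhibitor of eIF2B. Eif2ak4 (GCN2, activated by uncharged tRNA) was the 1 factor gene that fell, with 116 and 133 units in TRAP and 219 and 202 units in input. The fractions were well apart, and its log2 fold change was −0.76 ± 0.11 (limma adjusted p = 0.0322), although the call was lost when any 1 of the 4 arrays was left out and when only probe sets above background were fitted. Eif2ak3 (PERK, activated by unfolded proteins in the endoplasmic reticulum) had 552 and 942 units in TRAP and 326 and 276 units in input. Both TRAP arrays were above input, with a log2 fold change of 1.27 ± 0.38 that missed the threshold (limma adjusted p = 0.0962). Eif2ak1 (HRI, activated by lack of heme) had 370 and 347 units in TRAP and 224 and 426 units in input, an overlap, and Eif2ak2 (PKR, activated by double-stranded RNA) stayed under 50 units on all 4 arrays.

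Of the genes that respond to phosphorylated eIF2, 11 were above background, 3 (27.3%, against 18.7% of all genes) were higher and 0 lower, and the median log2 fold change was 0.70. Atf4, the transcription factor whose translation increases when eIF2 is phosphorylated, had 11337 and 11593 units in TRAP and 6134 and 6661 units in input (log2 fold change 0.84 ± 0.06, limma adjusted p = 0.00835). Asns, asparagine synthetase and a target of ATF4, had 3711 and 3771 units in TRAP and 952 and 718 units in input (log2 fold change 2.18 ± 0.19, limma adjusted p = 0.0133). Chac1, a glutathione-degrading enzyme induced by ATF4, had 458 and 417 units in TRAP and 106 and 113 units in input (3.99-fold higher, limma adjusted p = 0.00276). The other end of the list was Ppp1r15b, a regulatory subunit of the phosphatase that acts on eIF2, with 736 and 730 units in TRAP and 748 and 817 units in input.

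Among the genes named for the scanning factors eIF1 and eIF1A, 2 of 4 above background rose (50%, against 18.7% of all genes). Of the 2, Eif1ad is grouped here by its name, and its part in scanning was not examined. Eif1b, a close relative of the scanning factor Eif1, had 9233 and 9261 units in TRAP and 4241 and 3141 units in input. The log2 fold change was 1.34 ± 0.20 (limma adjusted p = 0.0359), with the fractions apart, and the call was lost without either TRAP array and after quantile normalization. Eif1ad, named for its eIF1A-like domain, had 646 and 818 units in TRAP and 186 and 234 units in input (log2 fold change 1.80 ± 0.22, limma adjusted p = 0.0247), a call that was lost when any 1 of the 4 arrays was left out. A second, dimmer probe set of Eif1ad went the other way, as given below. Eif1ax, the X-linked eIF1A gene, had 2250 and 2789 units in TRAP and 2277 and 1676 units in input. By the chosen probe sets it had the smallest log2 fold change of this group, 0.36 ± 0.25. Its further probe sets above background were at 1.84 and 1.07 and the mean of all its probe sets at 1.09, none of them past the threshold, so this rank depended on the probe set.

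**Figure D2:**
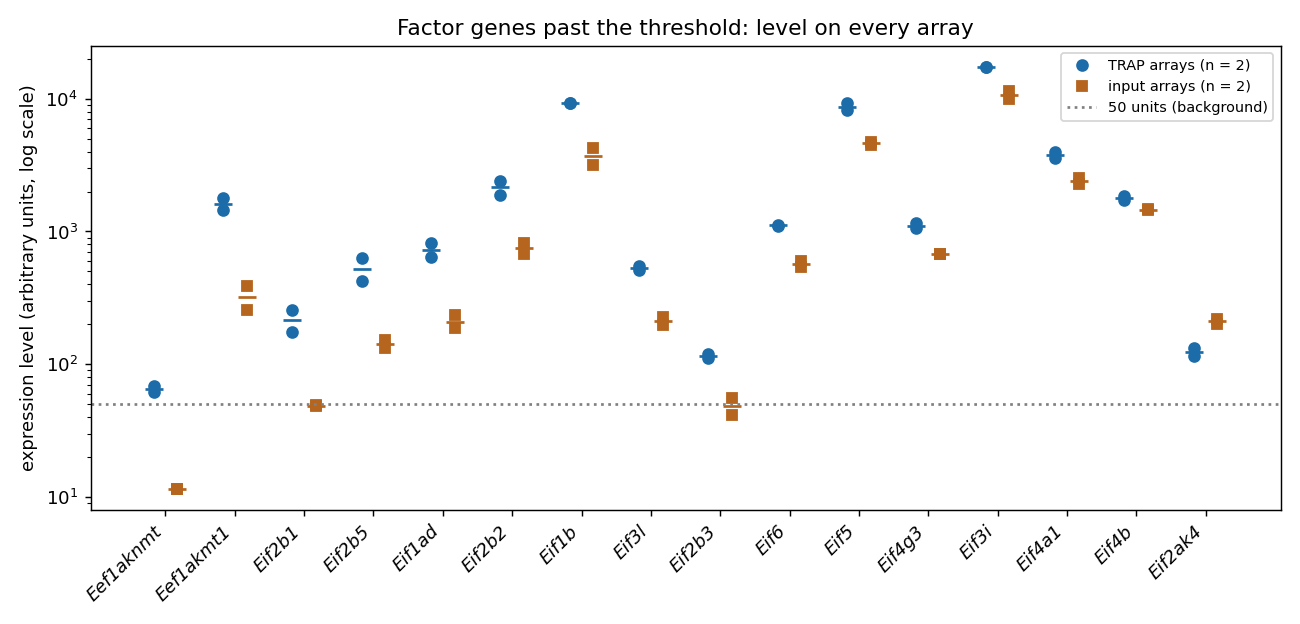
Level on every array (y axis, arbitrary units on a log scale) of the 16 factor genes past the threshold, with TRAP arrays as blue circles, input arrays as orange squares, group means as short lines and the background of 50 units as a dotted line. In the 15 genes that were higher both circles lie above both squares, and in Eif2ak4 (116 and 133 units in TRAP, 219 and 202 units in input) both lie below.

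The scaffold eIF3 holds the small subunit and the mRNA together, and 11 of its subunit genes were above background. Of these, 2 rose and 0 fell, a share of 18.2% that was close to the 18.7% of all genes, and the median log2 fold change was 0.56. Eif3l had 517 and 547 units in TRAP and 227 and 197 units in input (log2 fold change 1.33 ± 0.10, limma adjusted p = 0.0108). Eif3i, the brightest of the group, had 17305 and 17239 units in TRAP and 10026 and 11461 units in input (log2 fold change 0.69 ± 0.09, limma adjusted p = 0.0279). Both were apart from input, and both calls were lost without either TRAP array, that of Eif3i also after quantile normalization, after centring and in the fit above background only. At the other end, Eif3e had 6343 and 4866 units in TRAP and 8203 and 6234 units in input, with a log2 fold change of −0.36 ± 0.26 and overlapping arrays. Eif3a, the largest scaffold subunit, had 1666 and 2065 units in TRAP, between the 1403 and 2842 units of input.

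Within the cap-binding group of eIF4F and its helpers, 3 of 10 genes above background were called higher (30%, against 18.7% of all genes) and 0 lower. The median log2 fold change was 0.54. Eif4g3, a scaffold that joins the cap-binding protein, the helicase and eIF3, had 1057 and 1156 units in TRAP and 681 and 677 units in input (log2 fold change 0.70 ± 0.06, limma adjusted p = 0.0129). Eif4a1, the main RNA helicase of eIF4F, had 3962 and 3555 units in TRAP and 2529 and 2268 units in input (log2 fold change 0.65 ± 0.10, limma adjusted p = 0.0396). Eif4b, which stimulates that helicase, had 1737 and 1841 units in TRAP and 1467 and 1457 units in input. Its log2 fold change as deposited was 0.29 ± 0.04 (limma adjusted p = 0.0294), but it was −0.22 after quantile normalization and −0.12 after centring, so its direction depended on the scaling. Eif4a1 lost its call when any 1 of the 4 arrays was left out, after quantile normalization (0.11), after centring (0.24) and in the fit above background only. Eif4g3 lost it when either input array was left out, after quantile normalization (0.24) and in the fit above background only.

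The cap-binding proteins themselves differed between pools. Eif4e had 4741 and 3622 units in TRAP and 3244 and 1187 units in input, and although both TRAP arrays were higher, the log2 fold change of 1.08 ± 0.70 did not pass (limma adjusted p = 0.297). Eif4e3, a divergent cap-binding relative, had 1964 and 1242 units in TRAP and 523 and 554 units in input. With a log2 fold change of 1.54 ± 0.31 (limma adjusted p = 0.0595) it was the uncalled gene of this group nearest to the threshold. It passed after centring, with the intensity trend and in the fit above background only (limma adjusted p under 0.05 in each). Eif4e2, the relative known for repressing translation, had 334 and 175 units in TRAP and 206 and 211 units in input, with input inside the range of TRAP. Eif4enif1, which carries eIF4E into the nucleus and into processing bodies, had 292 and 280 units in TRAP and 378 and 309 units in input (log2 fold change −0.26 ± 0.14), with both TRAP arrays below both input arrays.

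The brightest gene of the group was Eif4h, a helper of the helicase, with 18808 and 22251 units in TRAP and 14670 and 15731 units in input (log2 fold change 0.43 ± 0.12, limma adjusted p = 0.0897). Among the inhibitors that hold eIF4E away from the scaffold, Eif4ebp2, the main form in brain, had 249 and 180 units in TRAP and 171 and 201 units in input, an overlap. Eif4ebp1 stayed below background, at 45.6 units on both TRAP arrays and 5.8 units on both input arrays. Equal values on both arrays of a fraction make limma's p uninformative, and a gene under background on all 4 arrays was not counted. The helicase Eif4a3, a core protein of the exon junction complex, was at 4.6 units on all 4 arrays with the probe set used here.

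The kinase complex mTORC1 releases eIF4E from its inhibitors, and 12 genes of this pathway were above background. Of these, 3 (25%, against 18.7% of all genes) were higher and 0 lower, with a median log2 fold change of 0.68. Larp1, a protein that binds mRNAs with a pyrimidine-rich start, had 2636 and 2993 units in TRAP and 1268 and 1505 units in input (limma adjusted p = 0.0316). Akt1s1, an inhibitory subunit of mTORC1, had 81.7 and 77.0 units in TRAP and 9.4 and 11.3 units in input, and Tsc2, which keeps the activator Rheb switched off, had 89.5 and 93.4 units in TRAP and 11.2 and 10.2 units in input. Both lay under background in input. Deptor, another inhibitor, had the lowest log2 fold change, −1.16 ± 0.55, with 256 and 227 units in TRAP and 360 and 812 units in input. Of 9 poly(A)-binding proteins and eIF4 partners, 0 passed in either direction (1 was lower and 0 higher at an unadjusted limma p under 0.05). The shares called over all genes were 18.7% higher and 6.87% lower. Values in this list spanned −0.76 for the kinase Mknk2 to 1.45 for Paip2, an inhibitor of the poly(A)-binding protein.

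At the step of subunit joining, 2 of 3 genes rose (66.7%, against 18.7% of all genes). Eif5, which triggers GTP hydrolysis by eIF2 at the start codon, had 9203 and 8232 units in TRAP and 4701 and 4499 units in input. Its log2 fold change was 0.92 ± 0.08 (limma adjusted p = 0.0134). Further Eif5 probe sets above background were at 0.23, 0.66 and 1.38, none of them past the threshold (limma adjusted p = 0.16, 0.24 and 0.27). The one at 0.23 was bright too, with 6240 and 7206 units in TRAP. A dim one was lower in TRAP, as given below, so the call of Eif5 depended on the probe set. Eif6, which keeps free large subunits from joining too early, had 1101 and 1121 units in TRAP and 544 and 603 units in input (log2 fold change 0.96 ± 0.07, limma adjusted p = 0.00961). The fractions were apart for both, and both calls were lost without TRAP replicate 2 and after quantile normalization. The call of Eif6 was also lost without TRAP replicate 4, and that of Eif5 without either input array. Eif5b, the GTPase that joins the subunits, had 232 and 205 units in TRAP and 291 and 216 units in input, which overlapped. Eif5a, which helps ribosomes through difficult peptide bonds, was the brightest factor gene, with 23006 and 29465 units in TRAP and 14304 and 26316 units in input, an overlap, and its relative Eif5a2 had 1413 and 1825 units in TRAP and 1492 and 583 units in input.

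Other initiation factors that do not carry an eIF name gave 4 higher and 0 lower of 8 genes above background (50%, against 18.7% of all genes), with a median log2 fold change of 1.03. The called genes were Mcts1 and Mcts2, partners in the recycling of small subunits, Bzw2, a mimic of eIF5, and the helicase Dhx29. The log2 fold changes of the first 3 were 1.52, 2.03 and 1.75, and Dhx29, under background in input, was at least 1.37-fold higher. Of 5 termination and rescue genes 2 were higher (40%, against 18.7% of all genes), Gspt2, a GTPase of termination, at 1.48 and Pelo, which rescues stalled ribosomes, at 1.54. Of 6 mitochondrial translation factors 3 were higher (50%, against 18.7% of all genes), the factors Mtif3 and Tsfm and the release factor Mtrf1l, at 0.74, 1.15 and 1.05. In both of these lists 0 genes were lower.

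Among the elongation factors proper, 0 of 5 genes of eEF1 and 0 of 2 of eEF2 and its kinase passed the threshold in either direction (also 0 at an unadjusted limma p under 0.05). Over all genes 18.7% were called higher and 6.87% lower, so 0 calls among so few genes do not set them apart. Eef1a1, which carries aminoacyl-tRNA to the ribosome, had 15848 and 18090 units in TRAP and 15960 and 11664 units in input (log2 fold change 0.31 ± 0.23, limma adjusted p = 0.341). Eef1a2, the form that replaces it in mature neurons and muscle, had 4234 and 6634 units in TRAP and 1506 and 3617 units in input (log2 fold change 1.18 ± 0.66, limma adjusted p = 0.247). The first overlapped input and the second did not. Within each array the log2 ratio of Eef1a2 over Eef1a1 was on average 0.87 higher in TRAP, but it overlapped between the fractions. An exact permutation of 2 against 2 arrays could not go below p = 0.33, so no test of such ratios was made.

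Eef1b2, an exchange factor for eEF1A, had 16452 and 15690 units in TRAP and 14055 and 11340 units in input, and Eef1d, which shares that role, had 6906 and 5603 units in TRAP and 5655 and 7923 units in input. Their log2 fold changes were 0.35 ± 0.15 and −0.11 ± 0.27. Eef1e1, named as an elongation factor subunit but best known as a scaffold of the aminoacyl-tRNA synthetase complex, had the largest log2 fold change of the 54 factor genes with all 4 arrays in the fit. It had 4552 and 4624 units in TRAP and 1368 and 354 units in input, a log2 fold change of 2.72 ± 0.91, and it did not pass with input arrays this far apart (limma adjusted p = 0.116). The value was 3.70 without input replicate 1 and 1.75 without input replicate 2. With 1 input array left, only the close TRAP pair gives a spread, so these fits cannot decide whether Eef1e1 passes. Eef2, which moves the ribosome along by a codon, had 4746 and 5386 units in TRAP and 2965 and 1149 units in input (log2 fold change 1.45 ± 0.64, limma adjusted p = 0.178). Its value was 2.14 without input replicate 1 and 0.77 without input replicate 2. Eef2k, the kinase that inactivates eEF2, had 523 and 425 units in TRAP and 592 and 577 units in input, both TRAP arrays below both input arrays, with a log2 fold change of −0.31 ± 0.14 (limma adjusted p = 0.185). It was past the threshold as lower after centring (−0.72, limma adjusted p = 0.0226). With all its probe sets averaged the log2 fold change was −0.68 (limma adjusted p = 0.0119). Its further probe sets were under background, with equal values on both arrays of a fraction. Of these, 1 had 5.5 units in TRAP and 18.7 units in input, the other 22.7 and 22.2 units. That average thus rests partly on readings without a spread, and its p-value carries little weight.

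Of 3 eEF1A methyltransferase genes above background, 2 were called higher (66.7%, against 18.7% of all genes). Eef1akmt1, which in human cells methylates a lysine of eEF1A, had 1788 and 1457 units in TRAP and 389 and 257 units in input (log2 fold change 2.35 ± 0.31, limma adjusted p = 0.0286), a call that did not survive leaving out any 1 of the 4 arrays. Eef1aknmt, which in human cells methylates the N-terminus and a lysine of eEF1A, had 62.0 and 68.2 units in TRAP and 11.6 units on both input arrays. With input below background the bound is at least 1.30-fold higher (limma adjusted p = 0.00127). The equal input values leave that fraction without a spread, and with values under 50 raised to 50 the log2 fold change was 0.38 (limma adjusted p = 0.157). Eef1akmt2, a further lysine methyltransferase, had 429 and 314 units in TRAP and 132 and 33.5 units in input (log2 fold change 2.47 ± 0.94, limma adjusted p = 0.144). Eef2kmt, which methylates eEF2, was under 6.5 units on all 4 arrays. Of 6 further elongation and modification genes above background, 0 passed in either direction (2 were higher and 0 lower at an unadjusted limma p under 0.05). The shares called over all genes were 18.7% higher and 6.87% lower. Values ran from 0.30 for Dph3 to 1.61 for Eefsec, the elongation factor of selenocysteine.

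Arrays of a fraction lay closer together in the called genes than in the uncalled ones. The median absolute log2 difference between the 2 TRAP arrays was 0.15 in the 16 called genes and 0.30 in the 38 uncalled genes, and between the 2 input arrays it was 0.17 in the called and 0.49 in the uncalled genes. Since a small spread enters the test itself, these values describe what the test selected. The TRAP arrays differed by more than 2-fold for 1 factor gene, Eif2s3y, and the input arrays for 10. Of the 38 uncalled genes, 20 (52.6%) had both TRAP arrays above both input arrays. The share of all genes, 52.3%, includes called genes, so it is not a like set for the uncalled factor genes.

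**Figure D3:**
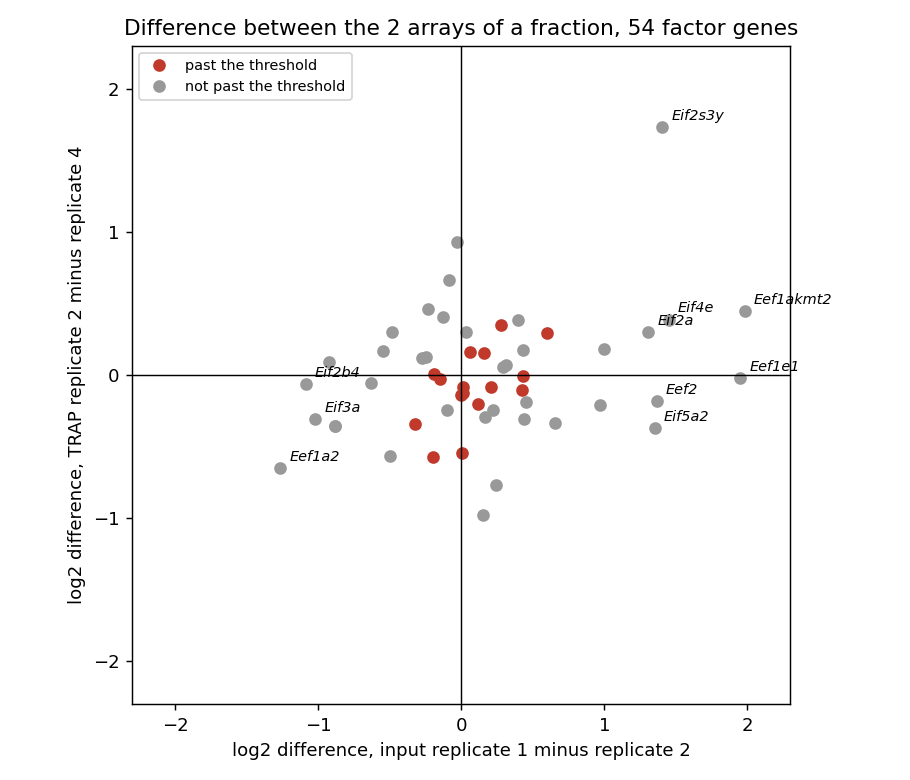
Log2 difference between the arrays of TRAP (y axis, replicate 2 minus replicate 4) and of input (x axis, replicate 1 minus replicate 2) for the 54 factor genes above background, with genes past the threshold in red and the others in grey. The genes more than 2-fold apart in a fraction are named, 1 for TRAP and 10 for input, and none of them is red.

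Other pairs of related genes were set side by side as log2 ratios within each array. The ratio of Eif4a2, the helicase form abundant in brain, over Eif4a1 was 0.14 higher in TRAP, that of Eif5a2 over Eif5a 0.36 higher and that of Eif2s3y over Eif2s3x 0.21 higher. Over Eif4e, the ratio of Eif4e3 was 0.46 higher, and that of Eif4e2 had a difference of −0.86. All of these ratios overlapped between TRAP and input. Eif4a2 itself had 12845 and 14814 units in TRAP and 11200 and 5724 units in input.

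Further probe sets were a second reading of the same genes. Beside the chosen ones there were 97, of which 46, in 27 genes, were above background, and 40 of these had the same sign of log2 fold change as the chosen probe set. For 7 called genes 13 further probe sets were above background, 10 of them of the same sign and 6 of these past the threshold. Both further probe sets of Eif2b2 were higher, at least 4.12-fold and at least 1.10-fold against an input under background, as were both of Eef1akmt1, at log2 fold changes of 3.45 and 2.24, and that of Eif3i at 1.92. In 3 uncalled genes, Eif2ak1, Eif2s2 and Eif4e2, a dimmer probe set passed the threshold with log2 fold changes of 1.27, 1.30 and 1.32. That of Eif2ak1 had 194 units on both TRAP arrays and 80.6 units on both input arrays, equal values for which limma's p is not informative.

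In 4 genes a further probe set was lower in TRAP at the threshold while the chosen one was positive. For Eif5 it had 4.8 and 6.7 units in TRAP and 115 and 148 units in input, for Eif2d 9.3 and 8.1 units in TRAP and 83.5 and 71.8 units in input, and for Eif1ad 10.9 and 8.7 units in TRAP and 80.8 and 93.3 units in input. For Eif6 it had 73.6 and 72.0 units in TRAP and 98.7 units on both input arrays. These readings were all dim, at 148 units or less. The fit placed the chosen probe sets of the same genes higher or, for Eif2d, did not call them. For Eif5 a bright further probe set, with a log2 fold change of 0.23, was not called either. Which part of each transcript these probe sets cover was not examined. When the mean of all probe sets stood for a gene, the log2 fold change of Eif1ad became −0.68 and that of Eif5 −0.27.

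**Figure D4:**
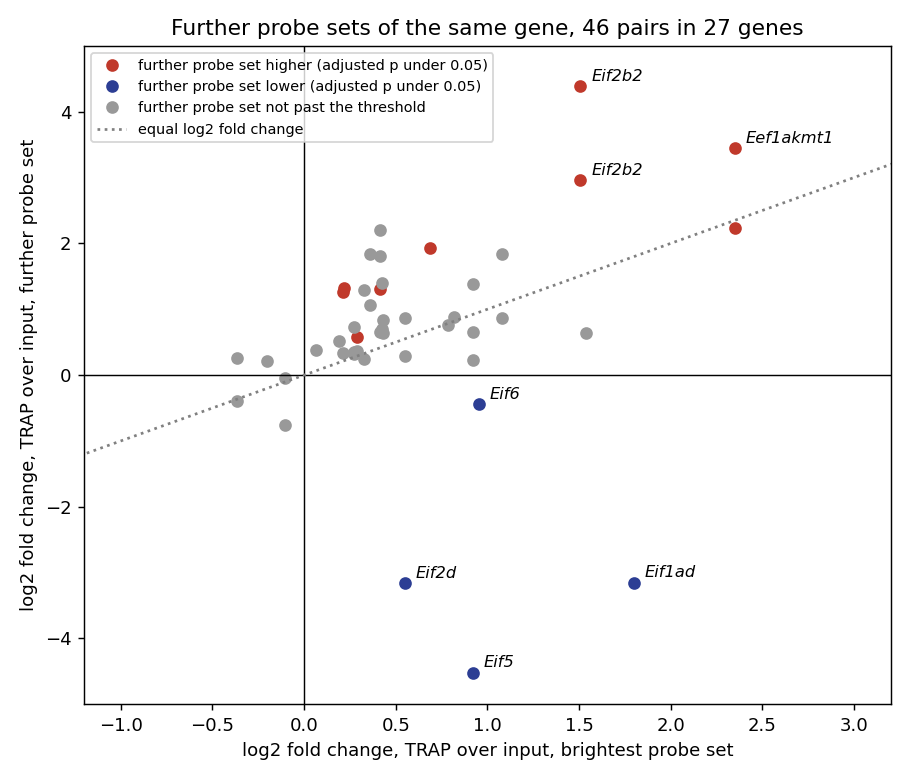
Log2 fold change, positive where TRAP was higher, for each of 46 further probe sets above background (y axis) against that of the chosen, brightest probe set of its gene (x axis), with the dotted line at equality. Red and blue points passed the threshold as higher and lower in TRAP, grey points did not; the 4 blue points, Eif5, Eif2d, Eif1ad and Eif6, lie below 0 where the chosen probe set lies above it.

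Several factor mRNAs are known to begin with a 5′ terminal oligopyrimidine (TOP) tract, through which mTORC1 and LARP1 control their translation. Of 9 such genes above background, 1 was higher (11.1%) and 0 lower, with a median log2 fold change of 0.31. Of the 45 factor genes outside that list, 14 were higher (31.1%) and 1 lower, with a median of 0.70, and over all genes 18.7% were higher with a median of 0.44. The difference between the lists was not tested. The called TOP gene was Eif4b, whose direction depended on the scaling.

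The start sites of 47 factor genes were available in RefSeq (GRCm38.p6), 10 bases before and 20 bases from the start. Examples are shown for a bright TOP gene each of eIF3 and eEF1, for both genes of eIF2 gamma, and for the called eIF3 gene Eif3l, with the pyrimidine run that begins with C in capitals. In the order of the lines they lie at chr7:108934405-108934434 (+), chr9:78481705-78481734 (−), chrX:94212632-94212661 (−), chrY:1010585-1010614 (+) and chr15:79075213-79075242 (+).
Eif3f start: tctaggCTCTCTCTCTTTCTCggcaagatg
Eef1a1 start: ctccgCCCTCTTCCCgagggtgggggagaa
Eif2s3x start: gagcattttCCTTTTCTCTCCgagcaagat
Eif2s3y start: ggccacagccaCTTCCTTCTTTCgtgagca
Eif3l start: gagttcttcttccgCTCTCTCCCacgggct
The marked run, counted from its first C near the start, is 12 bases long in both the X-linked and the Y-linked gene. In Eif3f it is 15, the longest marked run of these examples. In Eif2s3x further T letters stand directly before the marked run, so its whole pyrimidine stretch is longer than marked. On the arrays Eif3f had 5784 and 5308 units in TRAP and 5167 and 6117 units in input, a log2 fold change of −0.02 ± 0.13.

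A start of this kind, C within 5 bases of the annotated start and followed by at least 4 C or T, was found in 13 of the 47 factor genes (27.7%) and in 21.2% of all 27025 genes of the table. It was present in 4 of 11 called higher genes with a start and in 9 of 33 others above background. Among the 6 TOP genes with a start, 2 had it, so the annotated start and the TOP label did not coincide for the other 4. Other short motifs were searched on both strands from 250 bases before to 50 bases after the start. The ETS letters CCGGAAG were found in 16 factor genes (34.0%), against 9.93% of all genes, and the E-box CACGTG, which MYC and related factors bind, in 12 (25.5%), against 8.09%. Their shares were alike in called and uncalled genes, the ETS letters in 4 of 11 called higher and 12 of 33 others, and the E-box in 3 of 11 and 9 of 33.

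E-boxes near the start of 3 factor genes are shown with their letters in capitals, 2 of genes that were called higher (Eif1b and Eif4a1) and 1 of a gene that was not (Eef2). They lie at chr9:120492570-120492599 (+), chr11:69672595-69672624 (−) and chr10:81176576-81176605 (+).
Eif1b E-box: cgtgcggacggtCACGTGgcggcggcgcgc
Eif4a1 E-box: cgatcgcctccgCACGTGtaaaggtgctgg
Eef2 E-box: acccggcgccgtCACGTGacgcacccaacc
A match of letters is a description of the sequence and says nothing of binding in these cells. The other letters searched were TGACGTCA, the full cyclic AMP response element (2.13% of factor genes, Eef2 alone, against 2.03% of all genes), its first part TGACG (48.9% against 23.0%), GGGCGG, which Sp1 binds (74.5% against 38.2%), AAGATGGC, which YY1 binds (12.8% against 3.19%), and CCAAT (34.0% against 41.1%). TATAAA was found in 4 of the 47 factor genes and in 4234 of all genes. The base composition of the windows was not compared.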

How the data were processed

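RNA was amplified in 2 cycles by the authors, hybridised to 4 Affymetrix mouse expression arrays and processed with GCRMA (version not given in the sources used here). The deposited values are log2 expression values per probe set, and no further normalization was applied; whether the fractions were normalized together is not given in the sources used here. Probe sets were named from the platform annotation (34945 with 1 symbol, 932 with several, 9160 with none), and all 58 members were matched to RefSeq by gene identifier. TRAP was compared with input using limma 3.58.1 in R 4.3.3, 2-sided, with Benjamini-Hochberg adjustment over 45037 probe sets (64 controls left out) and a threshold of 0.05. The variance prior had 0.317 degrees of freedom beside 2 residual ones, since many low probe sets have equal values on both arrays of a fraction. Where both arrays of a fraction were under 50 units, folds were bounded at 50. The fitting code was run on simulated data limited to probe sets with a mean of at least 50 units, which did not test the fit to all probe sets. All members may be named; values on every array are given for those past the threshold, for the highest, lowest and brightest of each role group, and for related pairs. The members, lists and the background of 50 units were chosen with earlier results of these data known. Genes with near-identical relatives can share probe signal. Alternatives were quantile normalization, centring on probe sets at or above 50 units on every array, a floor of 50, a fit above background only, a background of 100, an intensity trend, the mean of all probe sets, controls kept, and leaving out each array. The mean of all probe sets also took in those under background. Promoter sequences came from RefSeq (GRCm38.p6).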

Additional observations from a re-analysis of the deposited data

How the results depend on the processing

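No paired analysis was possible because the fractions share only replicate number 2. Leaving out each array gave 5 to 8 factor genes higher and 0 to 0 lower, with a median log2 fold change of 0.59 to 0.68. Quantile normalization gave 7 higher, 2 lower and a median of 0.16, and centring on bright probe sets 13 higher, 3 lower and a median of 0.26. With values under 50 raised to 50, 0 were higher and 0 lower (17 and 1 at an unadjusted limma p under 0.05). The fit above background only gave 12 higher (22.2%, against 22.7% of all genes) and 0 lower (against 9.17%). The mean of all probe sets gave 14 higher (25.9%, against 19.5%) and 2 lower (3.7%, against 8.98%), with a median of 0.48. A background of 100 units, the intensity trend and kept controls left the counts within 1.5 times those reported. Of the 16 calls, 8 held after quantile normalization, 13 after centring, 0 with the floor, 11 in the fit above background, 15 with the trend, 16 with controls, 13 with the mean of probe sets, and 4, 5, 6 and 5 without TRAP replicate 2, TRAP replicate 4, input replicate 1 and input replicate 2. The causes were not tested.

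Signs also turned. After quantile normalization Eif4b was −0.22, Eef1a1 −0.19, Eef1b2 −0.14, Eif1a −0.038, Eif1ax −0.17, Eif2ak1 −0.15, Eif2s2 −0.11, Eif2s3x −0.46, Eif2s3y −0.0041, Eif3c −0.26, Eif3h −0.017, Eif4e2 −0.086, Eif4ebp2 −0.10, Eif4g2 −0.15, Eif4h −0.044 and Eif5a −0.0044. After centring Eif4b was −0.12, Eef1a1 −0.10, Eef1b2 −0.059, Eif1ax −0.048, Eif2ak1 −0.19, Eif2s3x −0.34, Eif2s3y −0.13, Eif3c −0.14, Eif4e2 −0.19, Eif4ebp2 −0.21 and Eif4g2 −0.081. With the mean of all probe sets Eif1ad was −0.68, Eif5 −0.27, Eif2d −0.29, Eef1d 0.0074, Eif3a 0.086 and Eif3e 0.024. Without each array in turn, the log2 fold change ran between −0.35 and 0.14 for Eef1d, −0.25 and 0.68 for Eif2ak1, −0.26 and 0.39 for Eif2s3x, −0.59 and 1.15 for Eif2s3y, −0.62 and 0.40 for Eif3a, −0.14 and 0.10 for Eif3f, −0.023 and 0.97 for Eif3h, −0.25 and 0.68 for Eif4e2, −0.040 and 0.42 for Eif4ebp2, −0.015 and 0.86 for Eif5a and −0.42 and 0.016 for Eif5b. Of these genes Eif4b, Eif1ad and Eif5 were past the threshold as reported. The arrays give no counts, so depth cannot be stated, and values near 50 units are the least certain.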
